A study of Mus musculus with 4 samples.

Results

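The genes described here are 10 TNF receptor superfamily genes that T cells use: Tnfrsf1a (TNFR1), Tnfrsf1b (TNFR2), Tnfrsf4 (OX40), Tnfrsf8 (CD30), Tnfrsf9 (4-1BB), Tnfrsf14 (HVEM), Tnfrsf18 (GITR), Tnfrsf25 (DR3), Cd27 and Fas. They were picked by symbol from the 27179 genes of the count table, and all 10 symbols were found. The RNA sequenced was that of Treg cells, the CD4+Foxp3+ T cells that restrain immune responses. They came from C57BL/6 mice under steady-state conditions, from spleen together with peripheral lymph nodes. The groups were WT, with 2 libraries, and P65KO, also with 2, a label which the series describes as deficient in RelA (p65), a DNA-binding subunit of NF-kB. How the P65KO mice were made, their age and sex, and how many mice entered a library are details not given in the sources used here. Since no label names separate mice for the libraries of a group, each p-value reflects the scatter among the libraries alone, part of which may be technical.

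Receptors of this superfamily bind trimeric ligands through cysteine-rich repeats and signal through their cytoplasmic tails. TNFR1, Fas and DR3 carry a death domain, through which they can engage adaptors of cell death as well as NF-kB. The others lack it and recruit TRAF adaptors, which activate NF-kB, and TNFR2, OX40, 4-1BB and GITR are known as costimulatory receptors that support Treg survival and expansion. Some of these receptor genes are themselves known targets of NF-kB.

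The libraries held 4513863 to 4624230 counts, so that 3 counts corresponded to 0.649 to 0.665 CPM. TMM-scaled counts per library size are given as CPM throughout. Treg and T cell markers were present in all 4 libraries, with Foxp3 at 371 to 528 CPM. Of the 6 such markers, 2 fell (Ikzf2 and Ctla4), 1 rose (Il2ra) and 3 did not pass (Foxp3, Cd4 and Cd3e). Pax5 of B cells was at 0 counts in each library. The 10 myeloid and dendritic markers summed to 133 and 197 CPM in WT and to 998 and 357 CPM in the P65KO-labelled replicates 1 and 2, and all 7 of them that were tested were higher, while Siglech was at 0 in 3 of the 4 libraries and Clec9a at 0 in P65KO-labelled replicate 2. The 3 erythroid markers tested were also higher, and the 2 B cell markers tested, Cd79b and Ighm, were lower. Over all genes tested, 11.7% were called lower in P65KO and 9.00% higher. The 6 B cell markers summed to 1101 and 1085 CPM in WT and to 778 and 492 CPM in P65KO, nearly all of it Ighm. Xist counts were 494 and 608 in WT but 0 and 2 in P65KO, and the Y-linked Ddx3y was at 0 in WT and at 302 and 404 counts in P65KO, so the genotype label and the sex of the mice cannot be told apart. Rela itself had 806 to 909 counts in all 4 libraries (log2 difference 0.07, SE 0.10; edgeR adjusted p = 0.662). A whole-gene count includes exons outside a deleted part, so it could not check the label.

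Among these 10 genes, transcripts of most receptors without a death domain fell in the P65KO-labelled libraries, and none of the death-domain receptors fell. That difference between the 2 classes was not tested itself, and it is described for these 10 genes only. Of the 8 other superfamily genes tested, given below, 1 fell, 2 rose and 5 did not pass, and they were not sorted by death domain. Of the 7 genes without a death domain, 6, Tnfrsf8 included, fell and 1, Cd27, did not pass the test. Of the 3 death-domain genes 1, Tnfrsf1a, rose and 2, Fas and Tnfrsf25, did not pass. TNFR2, 4-1BB and OX40 transcripts fell 2.57-fold, 2.36-fold and 2.15-fold, CD30 transcripts fell to a few counts, and GITR and HVEM transcripts fell by less than 1.5-fold. The words rose and fell are used for genes whose p from the quasi-likelihood test of edgeR, adjusted by Benjamini-Hochberg over all 11172 genes tested, was below 0.05. In the same fit 11.7% of all genes tested were called lower in P65KO and 9.00% higher. All 10 receptor genes passed the filter on low counts, but Tnfrsf8 did so through the WT libraries alone. Its call therefore adds nothing to the count, and 5 of the other 9 genes were called lower. The same holds wherever Tnfrsf8 is counted here among receptor genes lower in P65KO. Without P65KO-labelled replicate 1, the library with the most myeloid transcripts, 4 receptor genes were called lower and 0 higher, against 5 and 1 without P65KO-labelled replicate 2. In 6 of the 10 genes, Tnfrsf8 included, both P65KO-labelled libraries lay below both WT libraries, and in 1 both lay above. Of all genes tested, 30.9% and 29.7% did so. Scaled by Foxp3 counts within a library, 9 of the 10 genes, Tnfrsf8 included, were lower in both P65KO-labelled libraries than in both WT libraries. On that scale 0 lay above and 1, Tnfrsf1a, overlapped at a mean log2 difference of 0.20. Fas, Tnfrsf25 and Cd27, which overlapped between the groups in CPM, differed by -0.32, -0.29 and -0.28, and Tnfrsf18 by -0.74. Foxp3 counts were 1737 and 1724 in WT and 1751 and 2385 in P65KO, and higher Foxp3 counts lower every such ratio. The share of all genes lower in both P65KO-labelled libraries on that scale was not computed. Which genes differ thus depends in part on the scaling, and these ratios were not tested. In bulk RNA, fewer cells that express a receptor and less RNA per cell cannot be told apart.

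**Figure D1:**
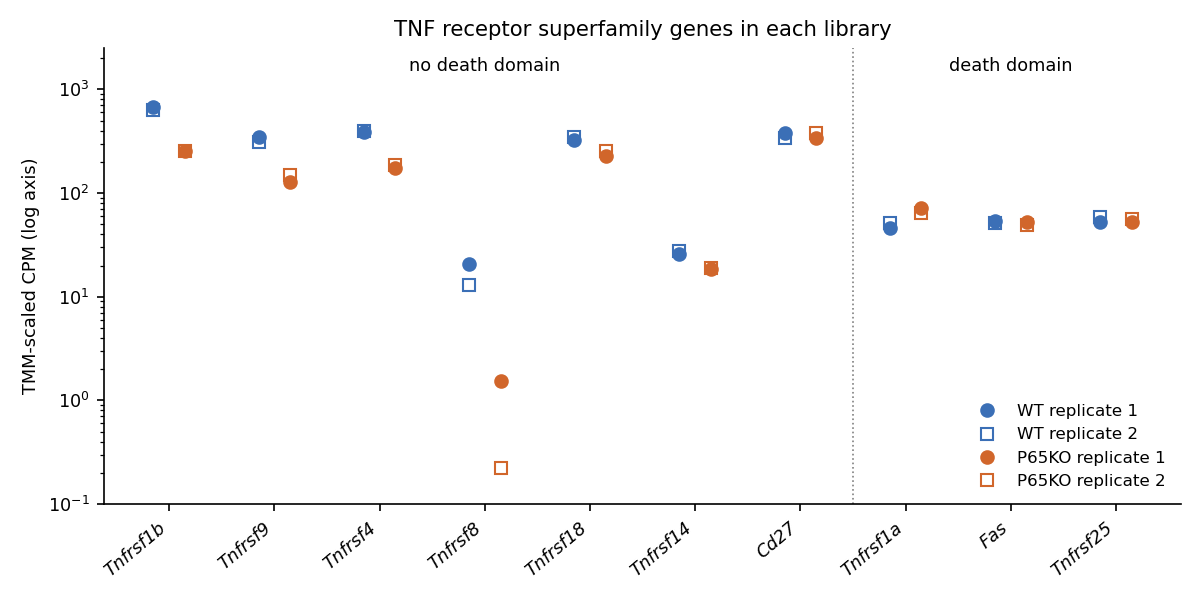
Expression of the 10 receptor genes in each of the 4 libraries, as TMM-scaled CPM on a log axis. Blue marks are WT and orange marks P65KO-labelled libraries, and filled circles and open squares are replicates 1 and 2. The orange marks lie below the blue ones for 6 of the 7 genes on the left and above them for Tnfrsf1a.

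Tnfrsf1b encodes TNFR2, the receptor through which membrane-bound TNF drives Treg expansion. It lies on chromosome 4 of GRCm38, from 145212368 to 145246870, and is counted under Entrez gene 21938. Its expression was 669 and 631 CPM in WT and 253 and 252 CPM in P65KO, from 1137 or more counts in each library. The 2 groups were far apart and the 2 P65KO-labelled libraries differed by about 1 CPM. The log2 difference was -1.36 (SE 0.09, 95% interval -1.56 to -1.17; edgeR adjusted p = 6.19e-07). It ranked 494 of the 11172 genes tested, counted from the lowest log2 difference.

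Tnfrsf9 encodes 4-1BB, an activation-induced costimulatory receptor, and lies on chromosome 4 from 150920155 to 150946104. It stood at 345 and 311 CPM in WT and at 128 and 150 CPM in P65KO. Both P65KO values were below the lower WT value by more than the spread within either group. The log2 difference was -1.24 (SE 0.10, 95% interval -1.47 to -1.01; edgeR adjusted p = 4.66e-06).

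Tnfrsf4 encodes OX40, the receptor of OX40 ligand on antigen-presenting cells, and lies on chromosome 4 from 156013595 to 156016613. Its values were 384 and 394 CPM in WT and 176 and 185 CPM in P65KO. Replicates of each group lay within 10 CPM of each other, and the groups did not overlap. The log2 difference was -1.11 (SE 0.09, 95% interval -1.30 to -0.91; edgeR adjusted p = 3.31e-06).

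Tnfrsf8 encodes CD30, a receptor of activated lymphocytes, on chromosome 4 from 145267132 to 145315164. Its counts were 95 and 60 in WT but 7 and 1 in P65KO, or 20.6 and 12.9 against 1.54 and 0.221 CPM. The P65KO library with 1 count was below the level of 3 counts. Pooled over libraries, the ratio of 155 WT counts to 8 P65KO counts was 19.4 (exact 95% interval 9.59 to 45.7, counting error only). The fitted log2 difference was -4.20 (SE 0.49; edgeR adjusted p = 7.45e-05), rank 39 from the lowest of all genes tested. It moved to -6.08 on leaving out P65KO-labelled replicate 1 and to -3.42 on leaving out the other P65KO library.

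The sequences before the transcription starts of the 3 receptor genes with the lowest log2 differences are shown beside that of Cd27, which did not pass, because the P65KO label names a factor that binds DNA at kappaB sites. They are the 250 bases before a RefSeq start (GRCm38.p6), 5′ to 3′ on the strand of the gene, and capitals mark a match to the 10-base kappaB consensus on either strand. For the downstream start of Tnfrsf9, 30 bases around the match are shown, since an annotated exon covers it.

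Tnfrsf8, chr4:145315165-145315414, minus strand: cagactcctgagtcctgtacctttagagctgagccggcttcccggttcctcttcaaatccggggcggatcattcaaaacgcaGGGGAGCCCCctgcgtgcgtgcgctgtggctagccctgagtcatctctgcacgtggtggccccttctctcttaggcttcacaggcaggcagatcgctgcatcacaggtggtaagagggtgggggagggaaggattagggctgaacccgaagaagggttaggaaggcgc
Tnfrsf9, upstream start, chr4:150919905-150920154, plus strand: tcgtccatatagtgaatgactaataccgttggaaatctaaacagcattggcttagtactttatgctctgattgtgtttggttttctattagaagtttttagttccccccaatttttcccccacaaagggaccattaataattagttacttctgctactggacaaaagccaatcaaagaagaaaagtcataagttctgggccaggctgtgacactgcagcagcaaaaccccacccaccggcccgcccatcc
Tnfrsf9, downstream start, chr4:150927947-150927976, plus strand: agagcagctGGGGATTTCCCaggaggccct
Tnfrsf1b, chr4:145246871-145247120, minus strand: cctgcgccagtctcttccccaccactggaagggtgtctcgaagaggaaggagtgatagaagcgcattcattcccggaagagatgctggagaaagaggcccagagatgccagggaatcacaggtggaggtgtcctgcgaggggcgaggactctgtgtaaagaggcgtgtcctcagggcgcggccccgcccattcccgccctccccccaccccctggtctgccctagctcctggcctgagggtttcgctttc
Cd27, chr6:125237028-125237277, minus strand: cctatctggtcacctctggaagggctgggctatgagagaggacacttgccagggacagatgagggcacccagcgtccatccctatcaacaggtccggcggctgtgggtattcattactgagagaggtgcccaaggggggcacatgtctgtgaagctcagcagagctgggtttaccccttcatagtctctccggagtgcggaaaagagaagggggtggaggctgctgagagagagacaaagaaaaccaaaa

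RefSeq gave 12 starts for the 10 genes, and the 250 bases before 2 of them, 1 of Tnfrsf8 and 1 of Tnfrsf9, held a match. The Tnfrsf9 match is the 11-base run GGGGATTTCCC, which holds 3 overlapping 10-base matches over both strands. It begins 43 bases before the downstream start, and it lies in a first exon, annotated as untranslated, of 1 GENCODE transcript of the gene. The Tnfrsf8 match, GGGGAGCCCC, begins 168 bases before the start and reads GGGGCTCCCC on the opposite strand. Of all 32851 such windows in the mouse table, 3.90% held a match, and of the 10986 windows of genes tested 4.56% did. No match in a window says only that these letters are not in it, and which start the cells used could not be read from counts per gene.

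GITR and HVEM showed smaller differences. Tnfrsf18 encodes GITR, which Treg cells carry at high density, on chromosome 4 from 156026322 to 156028894. It stood at 323 and 348 CPM in WT and 228 and 256 CPM in P65KO, so that the groups did not overlap (log2 -0.47, SE 0.10; edgeR adjusted p = 0.00388). That call ended without WT replicate 2 and without P65KO-labelled replicate 1 (adjusted p of 0.0735 and 0.0588), and with no filter on low counts (0.0649). An antisense gene, Gm16008, covers 27.2% of the exonic bases of Tnfrsf18, and with the strand setting of the counting not given, reads of the 2 cannot be told apart.

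Tnfrsf14 encodes HVEM, a receptor for LIGHT that also binds the inhibitory receptor BTLA, on chromosome 4 from 154918487 to 154928620. Its values were 26.0 and 27.5 CPM in WT and 18.5 and 18.8 CPM in P65KO. These levels rest on 84 to 128 counts per library. The log2 difference of -0.52 (SE 0.16; edgeR adjusted p = 0.0354) kept its sign but did not pass without any 1 of the 4 libraries (adjusted p of 0.108 to 0.202), with DESeq2 (0.327) or with no filter (0.0860).

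Cd27 encodes the receptor of CD70, a costimulatory receptor found on resting T cells too, and lies on chromosome 6 from 125232620 to 125237136. It stood at 380 and 341 CPM in WT and 339 and 379 CPM in P65KO. The 2 groups overlapped. The log2 difference was -0.01, with a 95% interval of -0.22 to 0.21, or 0.860-fold to 1.15-fold (edgeR adjusted p = 0.974).

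Among the death-domain receptors, Tnfrsf1a, which encodes TNFR1, a receptor for TNF, was the member that rose. It lies on chromosome 6 from 125349723 to 125362483. Its values were 46.0 and 51.4 CPM in WT and 71.2 and 63.8 CPM in P65KO, without overlap, and the log2 difference was 0.47 (SE 0.12, 95% interval 0.22 to 0.72; edgeR adjusted p = 0.0123). The call was lost when either WT library was left out (adjusted p of 0.141 for replicate 1 and 0.0625 for replicate 2) or P65KO-labelled replicate 1 (0.106), with DESeq2 (0.101) and with no filter (0.0884). TNFR1 is expressed by myeloid cells too, and the P65KO-labelled replicate 1, with the higher Tnfrsf1a value, also had the higher sum of myeloid markers (998 against 357 CPM), a part in the result that was not tested.

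Fas encodes the death receptor CD95, on chromosome 19 from 34290647 to 34327775. It stood at 53.8 and 51.2 CPM in WT and 52.7 and 48.9 CPM in P65KO, overlapping values with a log2 difference of -0.05 (95% interval -0.29 to 0.20; edgeR adjusted p = 0.821). Tnfrsf25 encodes DR3, the receptor of TL1A, on chromosome 4 from 152115528 to 152120119. Its values of 52.1 and 58.3 CPM in WT overlapped with 52.3 and 56.7 CPM in P65KO (log2 -0.02, 95% interval -0.27 to 0.23; edgeR adjusted p = 0.930). The intervals of Fas and Tnfrsf25 leave room for differences of up to 0.816-fold and 0.829-fold on the lower side and 1.15-fold and 1.17-fold on the upper side.

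**Figure D2:**
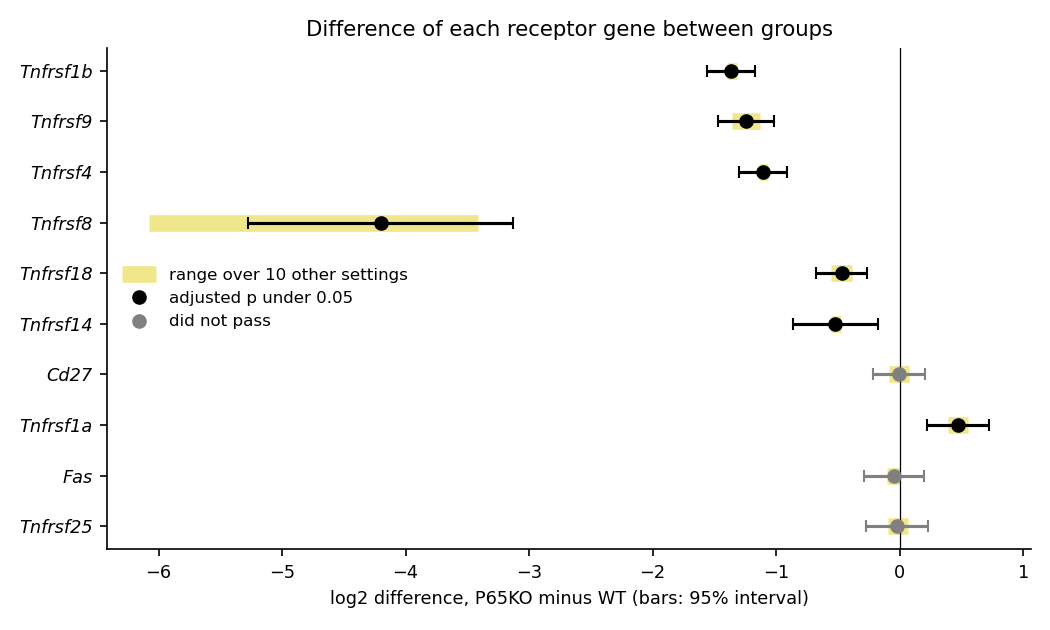
Log2 difference of each receptor gene, P65KO minus WT, with its 95% interval. Black points passed the test and grey points did not, and yellow bands span the values under the 10 other settings tested. Tnfrsf8 at -4.20 has the widest interval, and Cd27, Fas and Tnfrsf25 lie close to 0.

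Of the 7 receptor genes called, 4 (Tnfrsf1b, Tnfrsf9, Tnfrsf4 and Tnfrsf8) passed under every other setting that kept all 4 libraries. The largest edgeR adjusted p, with no filter, was 0.0148 for Tnfrsf9, above those of Tnfrsf1b and Tnfrsf4, and 0.0377 for Tnfrsf8. In the main fit Tnfrsf8 passed the filter through the WT libraries alone, so it adds nothing to that count.

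Levels of different genes were compared per length, as the RPKM values the authors deposited on a log2 scale. These values imply lengths of 1155 bases for Tnfrsf4 and 1007 for Tnfrsf18, where their GENCODE exons cover 1365 and 1524 bases. The order of genes at close levels therefore depends on the lengths used, and no other lengths were tried. In WT, Tnfrsf4 at 342 ± 2.69 RPKM (SD, n = 2) and Tnfrsf18 at 338 ± 14.8 RPKM were the most abundant and overlapped with each other. Cd27 at 232 RPKM came next, then Tnfrsf9 at 150 and Tnfrsf1b at 134 RPKM. The lower tier held Tnfrsf25 at 35.0, Tnfrsf14 at 30.5 and Fas at 29.6 RPKM, of which the last 2 overlapped, followed by Tnfrsf1a at 23.0 and Tnfrsf8 at 10.9 RPKM.

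The order of levels was different in the P65KO-labelled libraries. Tnfrsf18 at 236 ± 17.3 RPKM and Cd27 at 224 ± 15.9 RPKM (SD, n = 2) came first and overlapped, and Tnfrsf4 followed at 154 RPKM. Tnfrsf9 at 61.3 and Tnfrsf1b at 50.4 RPKM were still above the death-domain genes Tnfrsf25, Tnfrsf1a and Fas at 33.4, 30.8 and 27.8 RPKM. Tnfrsf25 and Tnfrsf1a overlapped. Tnfrsf14 at 20.6 RPKM had moved below Fas and Tnfrsf1a, and Tnfrsf8 was last at 0.621 RPKM.

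The 10 genes together summed to 1340 and 1309 RPKM in WT and to 810 and 867 RPKM in P65KO. Cd27 made up 18.4% and 16.7% of that sum in the WT libraries and 26.2% and 27.1% in P65KO. OX40 made up 25.4% and 26.2% in WT and 18.6% and 18.1% in P65KO, and TNFR2 10.4% and 9.88% against 6.27% and 5.77%. These shares are descriptions of the RNA, not of receptor numbers on the cell.

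**Figure D3:**
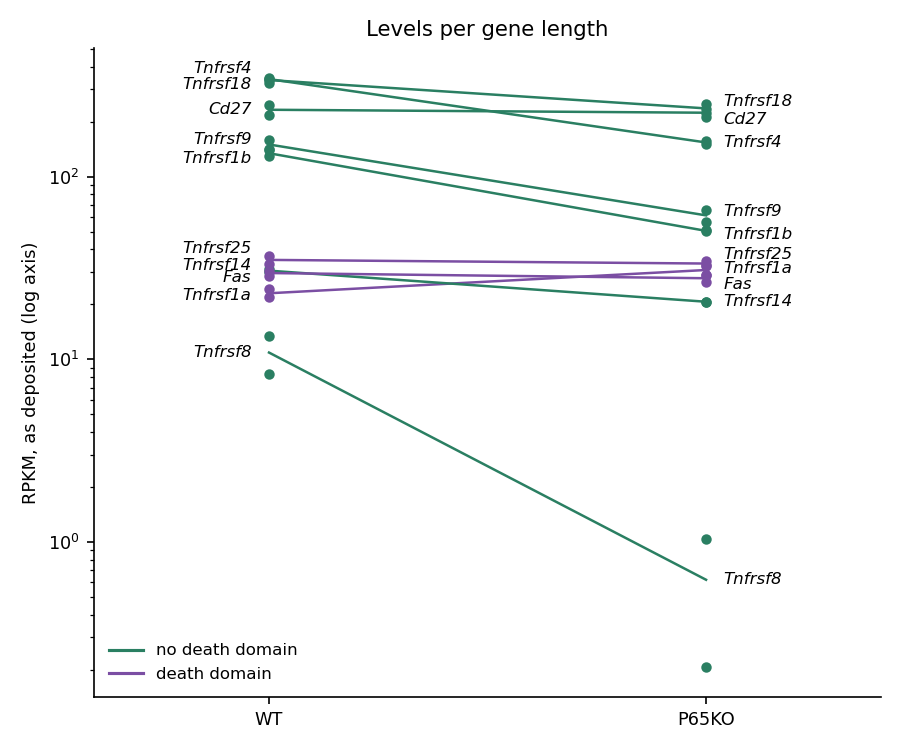
Levels of the 10 receptor genes per gene length, in RPKM on a log axis, with 1 point per library and lines joining the group means. Green genes lack a death domain and purple genes have one. In the RPKM as deposited, Tnfrsf4 and Tnfrsf18 start level at 342 and 338 in WT and separate to 154 and 236 in P65KO.

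Ratios of counts within a library do not depend on how libraries are scaled to each other. Both TNF receptors bind TNF, and Tnfrsf1b had 14.5 and 12.3 times the counts of Tnfrsf1a in the WT libraries. In the P65KO-labelled libraries the ratio was 3.55 and 3.95. The exact 95% intervals, for counting error only, were 12.6 to 16.8 and 10.7 to 14.1 in WT and 3.14 to 4.03 and 3.47 to 4.51 in P65KO. Over all genes, replicates of a group scattered more than counting error gives, with a chi-square per degree of freedom of 3.49 in WT and 3.97 in P65KO, so these intervals do not test the groups. The group means of the log2 ratio differed 3.57-fold.

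Tnfrsf4 and Tnfrsf18 are neighbours, with 9.71 kb between them and no other tested gene in the gap. The ratio of Tnfrsf4 to Tnfrsf18 counts was 1.19 and 1.13 in WT and 0.771 and 0.724 in P65KO, a 1.55-fold difference between the group means of the log2 ratio. With 2 libraries against 2, a two-sided exact permutation test cannot give a p below 0.333, and none was run on the ratios.

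**Figure D4:**
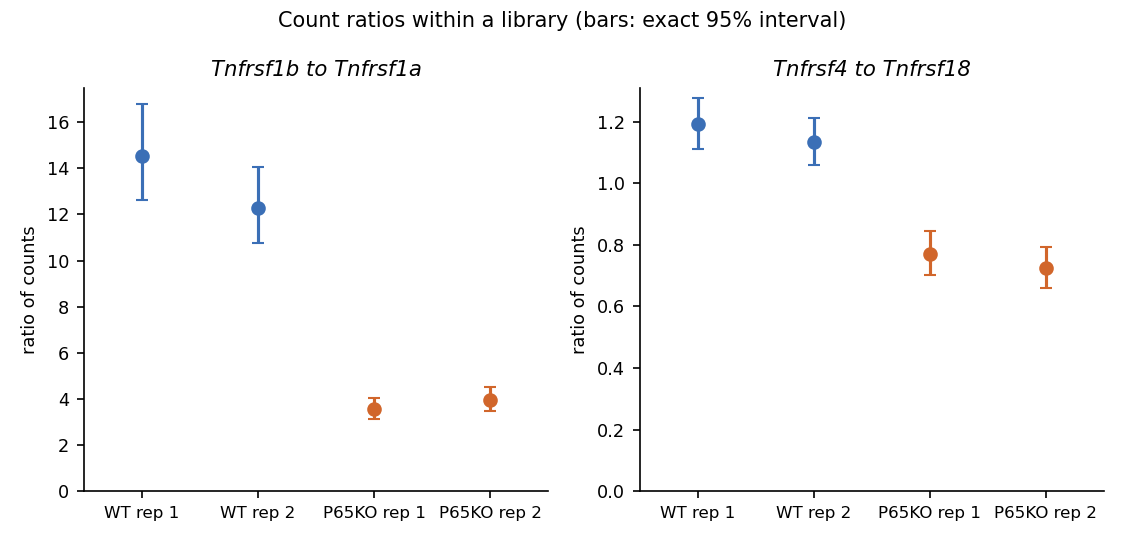
Ratio of raw counts within each library, Tnfrsf1b to Tnfrsf1a on the left and Tnfrsf4 to Tnfrsf18 on the right, with exact 95% intervals that cover counting error only. Blue points are WT and orange points P65KO-labelled libraries. The left ratio is 12.3 or more in WT and 3.95 or less in P65KO.

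Position is a feature that the selection did not use. Of the 10 genes, 7 lie on chromosome 4 between 145212368 and 156028894, and Tnfrsf25 was the one of them not called lower. Leaving aside Tnfrsf8, which had enough counts in WT alone, 5 of 6 were called lower. None of the 3 genes elsewhere was called lower. In that 10.8 Mb interval 98 other genes were tested, of which 12 (12.2%) were called lower and 11 higher, near the 11.7% and 9.00% of all genes. Tnfrsf1b and Tnfrsf8 lie 20.3 kb apart. The nearest tested genes on either side of these 7 receptor genes were 10 genes, of which 2 fell, 1 rose and 7 did not pass. Dhrs3, which encodes a retinaldehyde reductase and lies on one side of Tnfrsf1b and Tnfrsf8, fell (log2 -1.29; edgeR adjusted p = 0.0105), and Smarca5-ps on the other side did not pass (-0.40; 0.361). Sdf4, before Tnfrsf4, fell (-0.39; 0.00790), and Park7, before Tnfrsf9, rose (0.30; 0.0390).

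Among the partners that these receptors bind, 12 genes were listed. Of these genes of ligands or binding partners, 8 were tested, 3 fell, none rose and 5 did not pass. Of all genes tested, 11.7% were called lower and 9.00% higher. The median log2 difference was -0.71 against 0.00 over all genes tested. The members that fell all bind HVEM. The list holds more than 1 partner of HVEM, Btla and Cd160 among them, so this shared partner follows in part from the list. Lta, which can also bind HVEM, did not fall (log2 0.19; edgeR adjusted p = 0.352). Tnfsf14 (LIGHT) went from 38.0 and 38.1 CPM in WT to 14.8 and 7.31 in P65KO (log2 -1.78, SE 0.23), Cd160 from 17.6 and 17.9 to 10.1 and 9.30 (log2 -0.86, SE 0.21) and Btla from 179 and 189 to 129 and 129 (log2 -0.51, SE 0.09). Their edgeR adjusted p were 0.000179, 0.0103 and 0.00174. The call of Cd160 ended without WT replicate 1 or WT replicate 2 (0.109 and 0.112), with DESeq2 (0.132) and with no filter (0.0509). The difference of Tnfsf14 was -2.38 without P65KO-labelled replicate 1 and -1.36 without the other P65KO library, and its call ended with no filter (0.0507). B cells express Btla too, and the B cell marker sums were also lower in P65KO (778 and 492 against 1101 and 1085 CPM), a part in the result that was not tested. Tnf stood at 12.6 and 10.5 CPM in WT and 7.28 and 6.86 CPM in P65KO and did not pass (adjusted p = 0.0753), and Fasl, Tnfsf8, Tnfsf9 and Lta did not pass either. Tnfsf18, Tnfsf15 and Cd70, the ligands of GITR, DR3 and CD27, had at most 4 counts in any library, and were not tested.

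Behind the receptors, 21 genes of adaptors and proximal signalling were tested, and their median log2 difference was -0.09. Of them 5 fell, 2 rose and 14 did not pass, beside 11.7% of all genes tested called lower and 9.00% called higher. Tnfaip3, the ubiquitin-editing inhibitor A20, was the lowest, at 122 and 120 CPM in WT and 45.4 and 48.7 CPM in P65KO (log2 -1.36, SE 0.10; edgeR adjusted p = 1.97e-06). Traf1, Traf3, Traf5 and the TRAF-binding Tank fell by 0.52, 0.53, 0.37 and 0.53 on the log2 scale. The calls of Traf1 and Traf3 ended without WT replicate 1 (adjusted p of 0.0529 and 0.0993), that of Tank without replicate 2 of WT (0.104) or of P65KO (0.0713), and that of Traf5 without any 1 library (0.0613 to 0.191). With no filter the calls of Traf1, Traf3, Tank and Traf5 ended (0.0560, 0.0869, 0.0889 and 0.0933), and with DESeq2 that of Traf5 (0.233). Map3k14, the NF-kB inducing kinase that TRAF3 holds in check, rose by log2 0.79 (SE 0.12), and Casp8, the initiator caspase of death receptors, by 0.45 (SE 0.09), with edgeR adjusted p of 0.000407 and 0.00287. Fadd, Tradd, Ripk1 and Cflar, which act with death-domain receptors and caspase 8, did not pass.

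Of 11 genes of NF-kB subunits, their inhibitors and kinases, 6 fell and 5 did not pass, with a median of -0.37. The share called lower over all genes tested was 11.7%. Nfkb2 (2.20-fold) and Relb (2.02-fold), subunits of the non-canonical pathway, fell, as did Nfkbia (1.98-fold), which encodes IkB-alpha (edgeR adjusted p of 8.69e-06, 2.54e-05 and 1.01e-05). Rel, Nfkb1 and Nfkbie fell by less, and their calls ended without WT replicate 1 (adjusted p of 0.112, 0.112 and 0.178). The calls of Nfkb1 and Nfkbie also ended without P65KO-labelled replicate 2 (0.0715 and 0.130), that of Nfkb1 without P65KO-labelled replicate 1 (0.0858) and that of Nfkbie without WT replicate 2 (0.0560). With no filter all 3 calls ended (0.0622, 0.0771 and 0.123), and with DESeq2 those of Rel and Nfkbie (0.0811 and 0.0726).

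**Figure D5:**
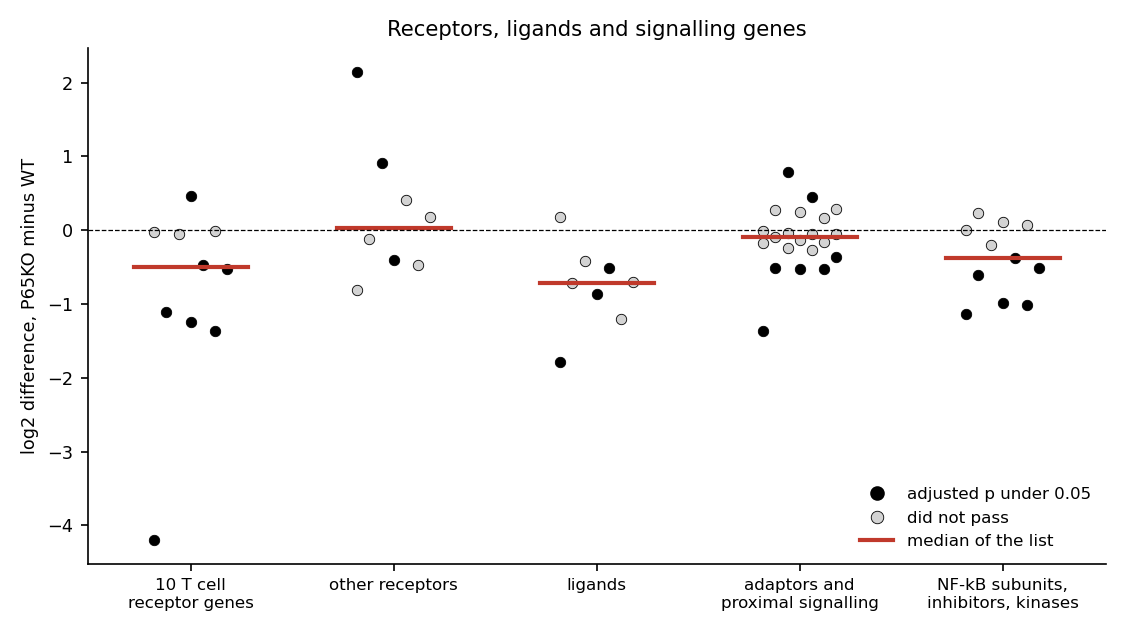
Log2 difference, P65KO minus WT, of every tested gene in 5 lists, with 1 point per gene. Black points passed the test, grey points did not, red lines are the medians of the lists and the dashed line is the median of all genes tested. The medians run from -0.71 for the ligands to 0.04 for the other receptors.

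Of the 18 other genes of the superfamily, 8 had enough counts to be tested, and 1 fell, 2 rose and 5 did not pass. Their median was 0.04, and of all genes tested 11.7% were called lower and 9.00% higher. Relt, a receptor of lymphoid tissues, rose from 25.0 and 28.4 CPM to 49.6 and 50.5 CPM (log2 0.91, SE 0.13; edgeR adjusted p = 0.000409). Tnfrsf21 (DR6) rose from 1.52 and 1.08 to 8.38 and 3.32 CPM, a call lost when P65KO-labelled replicate 1 was left out (adjusted p of 0.138) or either WT library (0.134 and 0.179), with DESeq2 (0.0599) and with no filter (0.137). Its counts were 7 and 5 in WT and 38 and 15 in P65KO, so it passed the filter on low counts through the P65KO-labelled libraries alone. Its call therefore adds nothing to the 2 that rose. Its difference was 2.15 on the log2 scale and 1.34 without P65KO-labelled replicate 1. The P65KO-labelled replicate 1 also had the highest myeloid marker sum, and its part in the result was not tested. Tnfrsf26 was called lower at log2 -0.40, a call that ended without any 1 library (adjusted p of 0.0998 to 0.262), with DESeq2 (0.326) and with no filter (0.122). Tnfrsf22 and Tnfrsf23 are related genes, and whether the counting split reads among the 3 was not tested. Of 3 genes that act in receptor shedding, Adam10 and Adam17 did not pass, and Rhbdf2, which guides the sheddase ADAM17 to the cell surface, rose from 13.7 and 12.5 to 24.5 and 27.0 CPM (log2 0.98, SE 0.18; edgeR adjusted p = 0.00180, or 0.0576 without WT replicate 2).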

How the data were processed

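The submitters' processing notes name Subread, featureCounts, limma and GRCm38 (mm10), with versions, annotation and strand setting not given in the sources used here. For each of 4 libraries the authors deposited a raw count and a log2 RPKM value per Entrez gene. The deposited log2 RPKM equal log2 of the count plus 0.5, scaled by gene length and by the library total, and served only for levels per length. Groups and replicate numbers came from the sample titles.

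Counts were filtered with filterByExpr, scaled by TMM and tested two-sided in R 4.3.3 by edgeR 4.0.16 (glmQLFit and glmQLFTest). Adjustment was by Benjamini-Hochberg over 11172 genes, with a threshold of 0.05. The SE is the log2 difference divided by the square root of F. The script was tested on simulated counts. Alternatives used DESeq2 1.42.0, limma-voom (limma 3.58.1), RLE or upper quartile scaling, no filter, the replicate number as a block, and each library left out. Of the genes tested, 11008 matched the RefSeq table (GRCm38.p6) by Entrez identifier. Exon overlaps came from GENCODE M21. All 10 receptor genes are named, and other genes come from fixed lists. The receptors and lists were chosen with earlier results of these data known.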

Additional observations from a re-analysis of the deposited data

How the results depend on the processing

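Directions of the 7 receptor genes called were kept under all 10 other settings with a test, while the number of calls was not. With no filter on low counts 771 genes were called in place of 2310, with 4 receptor genes lower and 0 higher. In the lists this left 0 lower and 1 higher among the other receptors, 1 ligand lower, 1 adaptor lower and 3 NF-kB genes lower. With DESeq2 the calls were 1318 genes, 5 receptor genes lower and 0 higher, 0 lower and 1 higher among the other receptors, 2 ligands, 4 adaptors and 4 NF-kB genes lower. Leaving out 1 library at a time gave 916 to 1676 genes (919 without WT replicate 1 and 916 without WT replicate 2), 4 to 5 receptor genes lower and 0 to 1 higher, 0 other receptors lower and 1 to 2 higher, 2 to 4 ligands lower, 2 to 4 adaptors lower, 3 to 5 NF-kB genes lower and 0 to 1 shedding genes higher; the lone library left in a group is then assumed to vary like the other group. Of 20 genes called in the pathway lists, 8 passed under all 10 settings. The cause of these changes was not tested, beyond the fewer libraries in a fit.

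The replicate block gave 2319 genes, 6 receptor genes lower and 1 higher, and it ended the call of Tnfrsf26 (edgeR adjusted p = 0.0514), leaving 0 other receptors lower. Deviations of same-numbered libraries from their group means correlated at -0.14 across genes, and no label says that the numbers pair the libraries. The depth limits Tnfrsf8 in P65KO and the ligands with a few counts.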

Other observations

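The 5 tested genes whose values over the 4 libraries were closest to those of Tnfrsf1b, by the root mean square difference of centred log2 CPM, were Stard10, Syt11, Mrgpre, Tnfaip3 and Cep89, at 0.03 to 0.05. With 4 libraries in 2 groups, this likeness reflects mainly the difference between groups. Syt11, a synaptotagmin family member, stood at 182 and 177 CPM in WT and 70.8 and 72.6 CPM in P65KO (log2 -1.33, SE 0.09; edgeR adjusted p = 1.31e-06). Stard10, a lipid transfer protein gene, went from 30.8 and 30.8 CPM to 11.7 and 11.7 CPM (log2 -1.39, SE 0.17; edgeR adjusted p = 8.85e-05). Tnfaip3 is the one of the 5 that also belongs to a list of receptor signalling genes.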
